A study of Mus musculus with 8 samples.

Results

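Cycling endothelial cells (ECs) are the fraction of the vascular lining of bone that is copying its DNA or dividing. In the 8 single-cell libraries of femoral stromal cells analysed here, 660 of 45328 kept cells were cycling ECs. They were chosen by their unique molecular identifiers (UMIs), the count of distinct RNA molecules read from a cell. A member had at least 5 UMIs over Cdh5, Pecam1, Emcn and Egfl7 with at least 1 of Cdh5, at least 2 UMIs over Top2a and Mki67, and 0 of Ptprc, the gene of the blood marker CD45. All 5456 ECs met the endothelial part of this gate, of which 4263 had 0 UMIs of Top2a and Mki67 and are called resting ECs, and 533 had 1. The word resting refers only to these 2 genes.

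The mice were 12-week-old C57BL/6 females. The Control group had unfractured femurs. The Fracture group had been fractured at 10 weeks of age, with the femur stabilised by an intramedullary nail, and was taken at day 14 after fracture. Both groups had been depleted of blood lineage cells, CD45+ cells and CD117+ cells with magnetic beads, and each group comprised 2 cell preparations of 2 libraries. The sources used here do not say how many animals entered a preparation, so p-values measure only the spread between preparations.

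Endothelial cells divide when a vessel sprouts or widens. In bone, sprouting proceeds ahead of new bone formation, both at the growth plate and in a fracture callus, and vessels that express high levels of CD31 (Pecam1) and endomucin (Emcn) accompany the osteoprogenitors there. Sinusoidal ECs (bmECs) line the wide vessels of the marrow, and arterial ECs (aECs) are classically regarded as quiescent. The study cites its own earlier work, in which loss of the Notch ligand gene Dll4 from ECs impaired vessel growth and bone formation. Top2a untangles DNA before it is separated in mitosis, and Mki67 coats the mitotic chromosomes.

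The libraries held 56543151 to 89126291 UMIs each. Members had more UMIs than resting ECs in every preparation, with medians of 8275 against 4414 and 8094 against 5417.5 in Control preparations 1 and 2, and of 8805 against 7129 and 9140 against 7826 in Fracture. The smallest barcode held 1 to 3 UMIs in the Control tables and 1929 to 2724 UMIs in the Fracture tables, so the barcodes kept in the tables differ between the groups, and what this does to the shares and depths was not tested. Because a deeper cell passes a UMI gate more easily, shares were also measured after every cell was thinned to 2000 UMIs, which left out 311 Control and 1 Fracture EC. Thinning to 4000 UMIs left out 1033 of 2745 Control and 41 of 2711 Fracture ECs, among them 17 and 10 members. Values at 4000 UMIs thus rest on the deeper Control ECs. None of the 290 genes whose symbol begins with U has a value in the tables of Control preparation 1, so these genes, among them Ube2c and Uhrf1, were left out throughout. Only 6 EC barcodes occurred in more than 1 library. Doublet calls by library ranged from 1 to 234 cells, and 34 of the 660 members carried one. The libraries of Fracture 1 had 234 and 1 calls and those of Fracture 2 had 4 and 200. Leaving out called doublets thus left library 2 of Fracture 1 and library 1 of Fracture 2 nearly unfiltered.

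Control preparation 1 stood apart. At least 3 UMIs of markers of another cell type were found in 35 of its 50 members (70.0%), against 21 of 61 (34.4%) in Control 2, 90 of 239 (37.7%) in Fracture 1 and 120 of 310 (38.7%) in Fracture 2. Summed levels of gene lists, and all levels outside the endothelial gate, are UMIs scaled to a common total (CPM). Levels of single genes in members and resting ECs are CPM as edgeR gives it, with its normalisation factors, so these scales differ slightly. The summed level of 4 megakaryocyte genes was 3442 and 551 CPM in the Control members and 34 and 148 CPM in the Fracture members. The 3 basophil genes summed to 2933 and 485 CPM in Control and to 59 and 6 CPM in Fracture. The opposite held for 6 chondrocyte genes, at 3478 and 194 CPM in Control against 13102 and 12828 CPM in Fracture, and for 7 erythroid genes, at 414 and 662 against 6611 and 7877 CPM. All genes of these 4 lists were detected in the members, and the cells outside the endothelial gate held 20101 and 10751 CPM of the chondrocyte genes in Control and 62475 and 61731 CPM in Fracture. Those cells held 733 and 8255 CPM of the erythroid genes in Control, and 2687 and 3661 CPM in Fracture, below the Fracture members. Resting ECs of Fracture held 2057 and 1619 CPM of the erythroid genes. In Control, the cells outside held 2969 and 774 CPM of the megakaryocyte and 5870 and 4834 CPM of the basophil genes. Resting ECs of Control held 419 and 172 CPM of the basophil genes. What these transcripts contribute to a level was not tested.

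The promoters of the phase genes with the highest levels in the members are shown because their letters illustrate how such genes are usually read together. Many genes of late S phase, G2 and M phase carry CCAAT boxes, which bind NF-Y, and a cell cycle homology region (CHR), which binds the DREAM and MuvB complexes. Over S-phase and G2/M genes, Tubb4b (a tubulin), Hmgb2 (a chromatin protein), Smc4 (a condensin subunit) and Cenpf (a kinetochore protein) had the highest mean levels in the members, at 451, 434, 426 and 367 CPM. Each line below gives the 200 bases before the RefSeq start on GRCm38.p6, on the gene's strand, and capitals mark CCAAT or its reverse complement and TTTGAA or its reverse complement.

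Tubb4b, chr2:25224703-25224902, minus strand: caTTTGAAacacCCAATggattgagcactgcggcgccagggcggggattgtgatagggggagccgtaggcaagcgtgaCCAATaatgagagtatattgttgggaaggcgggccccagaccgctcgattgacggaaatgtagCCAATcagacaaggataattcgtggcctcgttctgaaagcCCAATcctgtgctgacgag

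Hmgb2, chr8:57511643-57511842, plus strand: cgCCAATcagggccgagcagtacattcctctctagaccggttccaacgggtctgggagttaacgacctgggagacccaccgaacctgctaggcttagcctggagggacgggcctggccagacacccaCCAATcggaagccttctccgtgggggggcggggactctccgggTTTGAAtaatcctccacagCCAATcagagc

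Cenpf, chr1:189688087-189688286, minus strand: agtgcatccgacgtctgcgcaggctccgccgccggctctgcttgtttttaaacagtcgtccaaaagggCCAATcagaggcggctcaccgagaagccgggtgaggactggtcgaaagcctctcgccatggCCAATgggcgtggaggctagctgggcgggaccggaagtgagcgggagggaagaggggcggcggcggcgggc

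Tubb4b held 4 CCAAT boxes and 1 TTTGAA, Hmgb2 3 and 1, and Cenpf 2 and 0. CCAAT was found on either strand in 29.3% of all 32851 windows of this length, TTTGAA in 12.5% and both in 3.69%, and the 2 motifs did not overlap in the windows shown. Of 77 S-phase and G2/M genes with a window, 56 (72.7%) held CCAAT, 23 (29.9%) TTTGAA and 18 (23.4%) both. These shares count a gene when any of its windows matched, while those above count windows, so the units are not alike. A match of letters does not show binding.

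The members were well inside the endothelial gate. They held a median of 40 UMIs over the 4 endothelial genes, 545 of 660 (82.6%) had at least 20, and 8 had exactly 5. Cells that met every other condition but had 4 such UMIs numbered 16, and 25 cells were outside only for a Ptprc UMI. On Top2a and Mki67 the members ranged more widely, as 136 (20.6%) had exactly 2 UMIs, 237 had 3 to 9 and 287 (43.5%) had 10 or more. Both genes were detected in 509 members (77.1%). After thinning to 4000 UMIs, the median sum over the other S-phase and G2/M genes was 7 UMIs in ECs with 0 and also 7 in ECs with 1 UMI of Top2a and Mki67. The median was 11 in members with exactly 2, 34 in those with 3 to 9 and 65 in those with 10 or more. The cells just inside the threshold thus lay closer to the resting ECs than to the other members. These values chose the cells or move with those that did, and are given as a description.

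The label was compared with endothelial genes outside the gate. Of 17 further pan-endothelial genes, among them Kdr and Flt1 (VEGF receptors), Tie1, Tek and Erg, all 17 were detected in the members. All 17 were lower in members than in resting ECs, with a median log2 fold change of -0.29, against -0.06 over all genes. Detection alone does not bear out the label, since all genes of the chondrocyte, erythroid, megakaryocyte and basophil lists were detected as well. Levels are set against the cells outside the gate for Kdr and Sox18 only. Kdr measured 496, 939, 582 and 645 CPM in the members of Control 1, Control 2, Fracture 1 and Fracture 2, against a mean of 5.98 and 1.78 CPM in the Control and Fracture cells outside the gate. The transcription factor gene Sox18 was at 574, 595, 368 and 309 CPM in the members against 2.30 and 1.87 CPM outside. No preparation overlapped with the cells outside the gate for either gene.

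A larger share of ECs cycled after fracture. With all UMIs, members were 3.17% of the ECs of Control 1, 5.22% of Control 2, 19.0% of Fracture 1 and 21.3% of Fracture 2. The means were 4.20% ± 1.45 and 20.2% ± 1.63 (SD, n = 2), a difference of 15.97 percentage points. At equal depth of 2000 UMIs, counting cells with any UMI of these 2 genes, the shares were 4.75% and 7.23% in Control and 16.9% and 18.1% in Fracture, with means of 5.99% ± 1.76 and 17.5% ± 0.817. The ratio between the groups was 4.81 with all UMIs, 2.93 at 2000 UMIs, 2.61 at 4000 UMIs and 3.33 with the endothelial gate also applied to the thinned counts. The thinned measures differ from the first in depth, in the threshold on Top2a and Mki67 and in the cells left out, so the change in ratio is not set down to any 1 of these. The groups did not overlap on any of these measures. Each gave a two-sided exact permutation p of 0.333, which is the smallest that 2 preparations against 2 can give, so the difference could not pass a threshold of 0.05.

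By library, the full-count share ran from 2.62% to 6.09% over the 4 Control libraries and from 18.6% to 23.0% over the 4 Fracture libraries. Left without cells carrying markers of another type, the shares became 1.86% and 4.17% in Control and 18.02% and 19.9% in Fracture. With at least 4 UMIs of Top2a and Mki67 required, they were 1.90% and 3.59% against 14.5% and 14.6%. Members made up 0.392% and 0.770% of all kept cells in Control and 2.01% and 2.42% in Fracture.

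**Figure D1:**
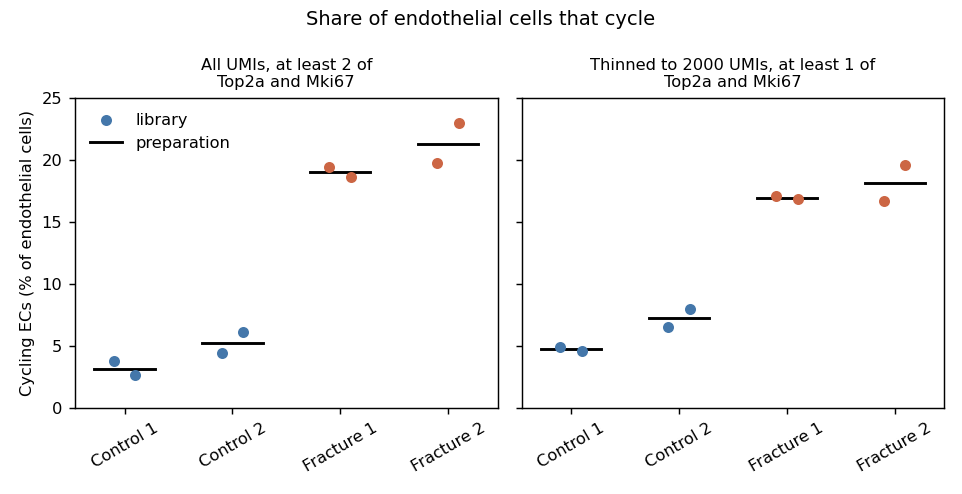
Cycling ECs as a percentage of all ECs in each preparation, with all UMIs (left) and as the share with any UMI of Top2a or Mki67 after thinning every cell to 2000 UMIs (right). Points are libraries and black bars are preparations, and all Fracture libraries lie above all Control libraries in both panels, with Control between 2.62% and 7.96% and Fracture between 16.7% and 23.0%.

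The cycle genes of the members were then compared between the groups. After thinning to 4000 UMIs, members held means of 11 and 13.9 S-phase UMIs in Control and 12.5 and 10.98 in Fracture. Means of G2/M UMIs were 26.1 and 38.8 in Control and 36.7 and 35.0 in Fracture. G2/M UMIs outnumbered S-phase UMIs in 82.2% and 83.7% of Control and in 80.0% and 77.3% of Fracture members. The groups overlapped in both means but not in this share, and since the lists differ in size it is no count of phases. In resting ECs, which hold few UMIs of either list, the same share was 79.6% and 78.8% in Control and 65.9% and 66.1% in Fracture, a wider gap than in the members.

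Of the S-phase and G2/M genes, edgeR called 1 in Fracture against Control members. Over the 10356 genes tested outside the gate, 179 (1.73%) were higher and 124 (1.2%) lower in Fracture, at a Benjamini-Hochberg adjusted p under 0.05, and 2183 had an unadjusted p under 0.05. The 303 calls became 2002 without Control 1, 1107 without Control 2, 39 without Fracture 1 and 48 without Fracture 2, 137 without called doublets, and 89 with the genes whose symbol begins with U. Without cells carrying markers of another type 454 were called, of which 136 were among the 303. Of 38 S-phase genes tested, 0 were called by edgeR (11 at an unadjusted p under 0.05, 0 by DESeq2), with a median log2 fold change of -0.24, and of 56 G2/M genes 1 was higher and 0 lower, with a median of 0.12. Over all genes the median was -0.02. The called gene was Cenpa, which encodes the histone of the centromere, at 126 and 137 CPM in Control and 260 and 257 CPM in Fracture members. Its log2 fold change was 0.92 ± 0.18 (SE, edgeR adjusted p = 0.0408), and this call did not hold in 8 of the 13 alternatives. Cdk1, the kinase that drives entry into mitosis, was at 243 and 353 CPM in Control and 430 and 374 CPM in Fracture, with a log2 fold change of 0.38 and an edgeR adjusted p of 0.388. Its level in Control 2 nearly reached that in Fracture 2.

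Of 11 G1 cyclins, kinases and E2F genes, 0 were higher and 1 lower. Cdk6, a kinase partner of D cyclins, was at 61.1 and 80.7 CPM in Control and 25.8 and 31.2 CPM in Fracture members (log2 fold change -1.36 ± 0.23, edgeR adjusted p = 0.0286), a call lost in 6 of the 13 alternatives. It stood at 121 CPM in the Control cells outside the gate, above the members. Of 13 cell-cycle inhibitors edgeR called 0 (3 at an unadjusted p under 0.05, 0 by DESeq2), with a median log2 fold change of 0.14.

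The vascular basement membrane was the list with the most calls by count. By share of genes tested, the erythroid list (3 of 6) and the basophil list (2 of 3) held more. Over all genes 1.73% were called higher. Of 14 genes tested, 5 were higher and 0 lower in Fracture members, with a median log2 fold change of 0.90. Col15a1, which encodes a collagen of the basement membrane zone (chr4:47208161-47313167 on GRCm38), was at 77.3 and 96.8 CPM in Control and at 451 and 458 CPM in Fracture members. Its level was 5.03-fold higher in Fracture (log2 fold change 2.33 ± 0.21 SE, edgeR adjusted p = 0.00319). After thinning to 2000 UMIs, at least 1 UMI was found in 8 of 48 and 5 of 57 Control members and in 114 of 239 and 151 of 310 Fracture members. Cells outside the gate held a mean of 34.5 and 49.9 CPM in Control and Fracture, and the call held in all 13 alternatives.

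Lama4, Lamb1 and Lamc1 encode the 3 chains of an endothelial laminin, and all 3 were called. Lama4 was at 117 and 106 CPM in Control and 283 and 270 CPM in Fracture members (log2 fold change 1.26 ± 0.18, edgeR adjusted p = 0.0158). Lamb1 was at 75.5 and 102 CPM in Control and 250 and 238 CPM in Fracture (1.41 ± 0.20, edgeR adjusted p = 0.0167). Lamc1 was at 98.9 and 119 CPM in Control and 214 and 208 CPM in Fracture (0.90 ± 0.18, edgeR adjusted p = 0.0479), a call lost in 6 of the 13 alternatives. For Lama5 and Lamb2, which encode chains of other laminins, the log2 fold changes were -0.33 and -0.82, and neither was called. Col4a1 and Col4a2, the main collagen IV chains, had log2 fold changes of 0.90 and 0.98 with edgeR adjusted p of 0.0806 and 0.0751. Sparc, a collagen-binding matrix protein, was called at 1.13 ± 0.19 (edgeR adjusted p = 0.029), but the cells outside the gate held more of it, with means of 21550 and 30677 CPM, and the call was lost in 5 of the 13 alternatives, among them leaving out cells with markers of another type. The 6 osteoblast genes summed to 1382 and 791 CPM in Control and 11626 and 6261 CPM in Fracture members, with 2 of 6 called higher and a median log2 fold change of 1.73, and their part in these levels was not tested.

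Of the sinusoidal genes, all 7 that were tested had a log2 fold change below 0, with a median of -1.37, and 2 were called lower in Fracture members. Adamts5, a proteoglycan-cleaving protease, was at 277 and 350 CPM in Control and 66.2 and 63.1 CPM in Fracture members. It fell 5.03-fold (log2 fold change -2.33 ± 0.19, edgeR adjusted p = 0.00235). Mrc1, a mannose receptor used for endocytosis, was at 171 and 361 CPM in Control and 54.4 and 67.4 CPM in Fracture (log2 fold change -2.18 ± 0.33, edgeR adjusted p = 0.0196). Stab2, the hyaluronan scavenger receptor that defines sinusoids, was at 128 and 421 CPM in Control and 85.9 and 97.0 CPM in Fracture. Its log2 fold change was -1.64 ± 0.45 with an edgeR adjusted p of 0.0983, and the 2 Control preparations lay far apart. Outside this list, Dnase1l3, a secreted nuclease that degrades DNA outside cells, was at 262 and 378 CPM in Control and 25.8 and 59.7 CPM in Fracture (log2 fold change -2.94 ± 0.37, edgeR adjusted p = 0.0112).

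Flow and junction genes gave 1 call of 9. Thbd, the anticoagulant thrombomodulin, was at 257 and 336 CPM in Control and 113 and 139 CPM in Fracture members (log2 fold change -1.28 ± 0.21, edgeR adjusted p = 0.0252). Among pan-endothelial genes 1 of 17 was called, the phosphatase gene Ptprb, a negative regulator of Tie2, at 980 and 871 CPM in Control against 433 and 527 CPM in Fracture (log2 fold change -0.996 ± 0.20, edgeR adjusted p = 0.0479), a call lost in 6 of the 13 alternatives. All 9 arterial genes tested and 11 of 12 Notch genes had log2 fold changes below 0, with medians of -0.77 and -0.54, against -0.02 over all genes. However, edgeR called 0 of either list (4 of each at an unadjusted p under 0.05, and 2 arterial and 0 Notch genes by DESeq2). For the Notch ligand gene Dll4 the members were at 119 and 92.0 CPM in Control and 69.1 and 64.3 CPM in Fracture (log2 fold change -0.70, edgeR adjusted p = 0.0947), and it was not called.

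Of 12 sprouting genes tested edgeR called 0 (5 at an unadjusted p under 0.05, 0 by DESeq2), and their median log2 fold change was 0.45. Apln, the apelin ligand of tip cells, was at 17.98 and 96.8 CPM in Control and 180 and 186 CPM in Fracture members. Its edgeR adjusted p was 0.12. Its receptor gene Aplnr was at 374 and 654 CPM against 711 and 713 CPM (log2 fold change 0.42, edgeR adjusted p = 0.421).

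Immediate early genes, transcribed within minutes of a stimulus, gave 1 call of 10, with 9 log2 fold changes above 0 and a median of 0.85. Atf3, a stress-induced transcription factor, was at 37.8 and 25.8 CPM in Control and 106 and 114 CPM in Fracture members (log2 fold change 1.75 ± 0.23, edgeR adjusted p = 0.0126). Among angiocrine genes, which code for factors that ECs send to neighbouring cells, Cyr61 (CCN1) was higher, at 59.3 and 33.9 CPM against 205 and 236 CPM (2.21 ± 0.25, edgeR adjusted p = 0.00767), and Hgf was lower, at 16.2 and 9.68 CPM against 0 in both Fracture preparations. Both Atf3 and Cyr61 were more abundant in the Fracture cells outside the gate, at 175 and 516 CPM. Hgf was likewise at 22.4 CPM outside the gate in Control. The Control sums held 526797 and 573601 UMIs, so the levels of Hgf rest on few UMIs. Its call could be tried in 5 of the 13 alternatives and held in 4. Of 14 glycolysis genes 2 were higher, Pkm (383 and 299 against 811 and 669 CPM) and Eno1 (97.1 and 85.5 against 187 and 162 CPM). Their log2 fold changes were 1.07 and 0.89, with edgeR adjusted p of 0.0466 and 0.0498, and the Fracture cells outside the gate held 814 and 310 CPM. The call of Pkm was lost in 4 and that of Eno1 in 8 of the 13 alternatives. Of nucleotide synthesis (14 tested), ribosome biogenesis (10), antigen and interferon (13), venous (7) and VEGF, Tie and apelin genes (13), edgeR called 0 and DESeq2 0, with 1, 3, 3, 4 and 3 at an unadjusted p under 0.05.

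**Figure D2:**
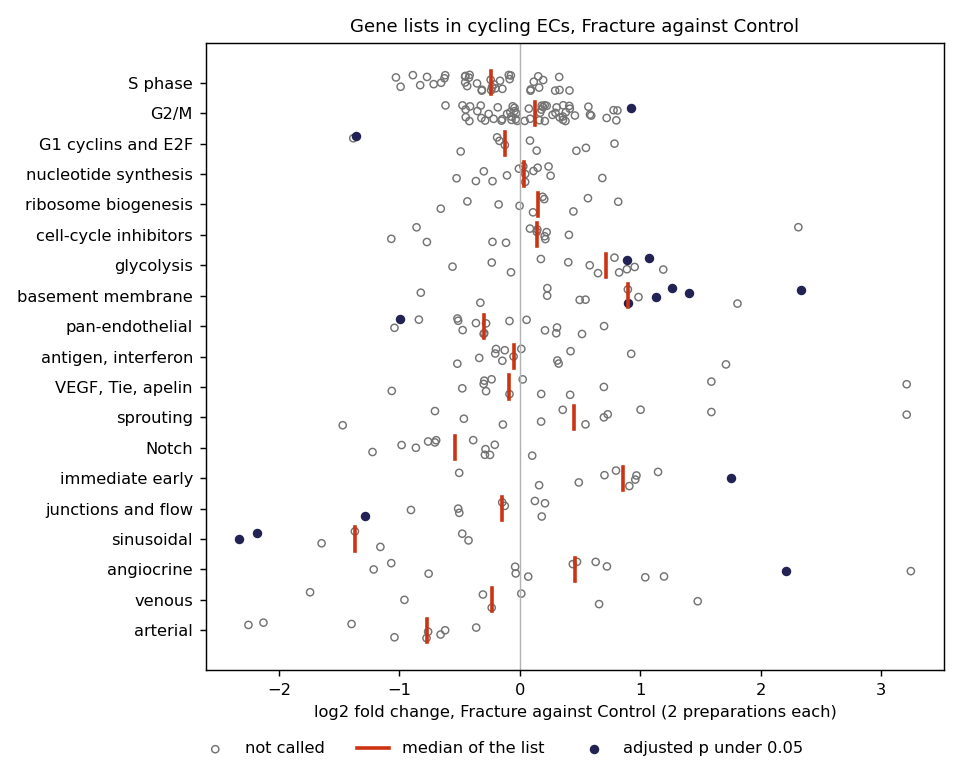
Log2 fold change of each tested gene in Fracture against Control members, by gene list, with called genes filled and the list median as a red bar. Hgf, with no UMI in Fracture members, is not drawn, and the basement membrane list holds 5 filled points to the right of 0 and the sinusoidal list 2 to the left.

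The genes outside the lists that were named for the largest rises included surface and signalling genes. Cd276, the immune checkpoint molecule B7-H3, was at 8.99 and 9.68 CPM in Control and at 107 and 87.5 CPM in Fracture members (log2 fold change 3.31 ± 0.30, edgeR adjusted p = 0.0034). Ms4a6d, a tetraspan membrane protein gene, had 3.60 and 0 CPM in Control and 43.8 and 39.9 CPM in Fracture members, and the Fracture cells outside the gate held 0.121 CPM. Ptn, the growth factor pleiotrophin, was at 5.39 and 9.68 CPM against 36.4 and 45.1 CPM. Rgs16, a brake on G-protein signalling, was at 3.60 and 8.07 CPM against 39.7 and 37.4 CPM. Mex3a, an RNA-binding protein gene, was at 7.19 and 12.9 CPM against 52.3 and 51.0 CPM. The calls of Cd276, Ms4a6d, Ptn, Rgs16 and Mex3a held in 13, 11, 10, 9 and 11 of the 13 alternatives. The rule also named Sgce, Rnf122 and the erythroid anion exchanger gene Slc4a1, with log2 fold changes of 1.91, 2.79 and 2.34. These calls held in 6 of 13, 9 of 13 and 8 of 12 alternatives. Slc4a1 is an erythroid gene, and the summed erythroid list was also higher in Fracture members.

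Among the named falls, Apoe, the apolipoprotein of remnant particles, was at 953 and 1000 CPM in Control and 169 and 148 CPM in Fracture members (log2 fold change -2.67 ± 0.20, edgeR adjusted p = 0.00137). Fmo1, a flavin monooxygenase, was at 34.2 and 58.1 CPM against 1.23 and 4.33 CPM. Eln, the elastin gene, was at 43.1 and 30.7 CPM against 6.95 and 4.95 CPM, and Nrcam, a cell adhesion molecule, at 27.0 and 50.02 CPM against 4.09 and 5.56 CPM. Igfbp2, which binds insulin-like growth factors, was at 53.9 and 37.1 CPM against 12.7 and 7.11 CPM, a call lost in 6 of the 13 alternatives. Tagln, a smooth muscle actin-binding protein, was at 360 and 90.4 CPM against 13.9 and 16.1 CPM, and the 4 smooth muscle genes summed to 742 and 10 CPM in Control and 35 and 31 CPM in Fracture members. Fam124a and Gm26917, a long noncoding RNA gene, completed the named falls at -2.45 and -2.90, and the call of Fam124a was lost in 6 of the 13 alternatives. The naming rule asked for groups that do not overlap, so that the absence of overlap in these genes is no result.

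Resting ECs gave a larger number of calls for the same contrast, 2422 higher and 2051 lower of 13754 tested, with more cells per preparation. Col15a1 had a log2 fold change of 2.15 there and 2.33 in the members, Adamts5 -2.53 and -2.33, and Cd276 2.95 and 3.31. Of the 14 basement membrane genes, 10 were called higher and 2 lower in resting ECs, with a median of 0.89. All 7 sinusoidal genes tested in resting ECs were called lower, with a median of -1.75. Of 10 arterial and 14 Notch genes tested there, 7 and 8 were called lower and 0 higher, with medians of -0.69 and -0.64. None of these shifts was thus particular to the members. The fits share no cells but the same preparations.

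**Figure D3:**
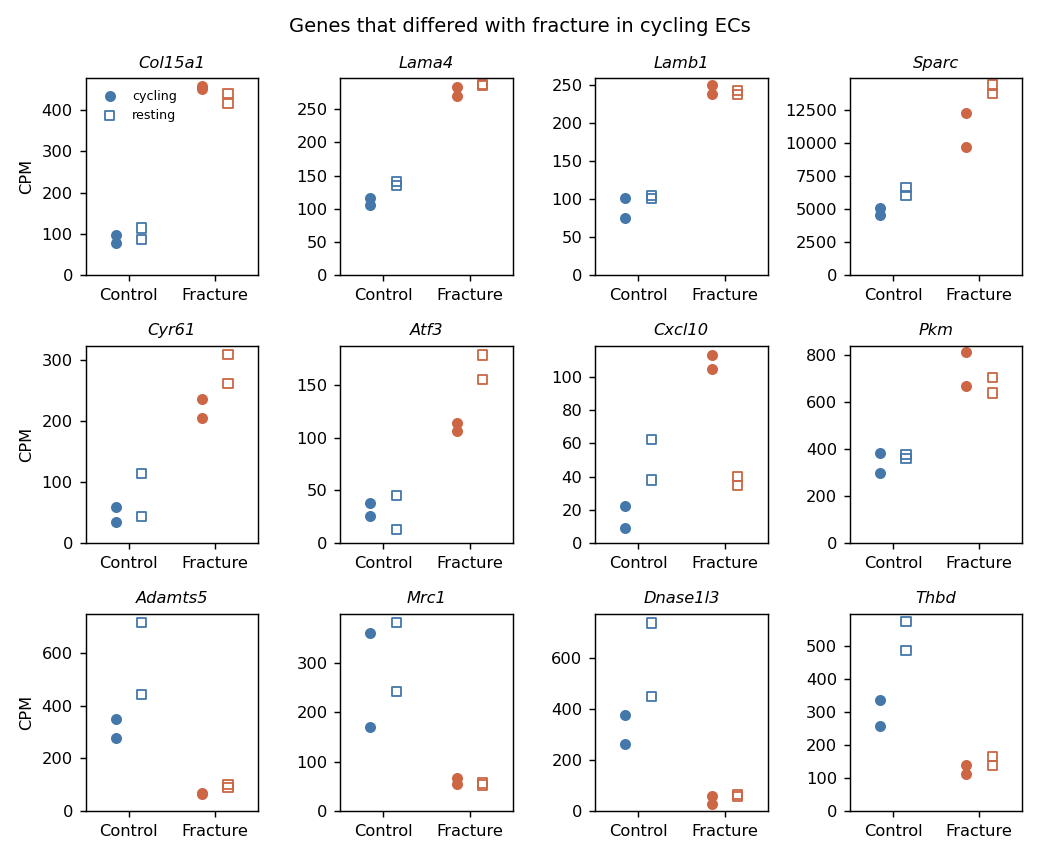
Levels in CPM of 12 genes called in Fracture against Control members, with filled circles for members and open squares for resting ECs, and 1 point for each preparation. Fracture members lie apart from Control members in all 12 panels, and the Cxcl10 panel shows the resting ECs of Fracture at 40.3 and 34.5 CPM, below its members.

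The fracture effect differed between cycling and resting ECs for 36 of 13428 genes (0.268%), 17 with a positive and 19 with a negative difference, by an edgeR term for group and state with the preparation as a block. Without the block 0 were called, with 1079 at an unadjusted p under 0.05. Cxcl10, an interferon-induced chemokine that acts on T cells through CXCR3 and restrains angiogenesis, had the largest positive difference among the named genes. It was at 8.99 and 22.6 CPM in Control and 113 and 105 CPM in Fracture members (log2 fold change 2.704 ± 0.32, edgeR adjusted p = 0.00802). In resting ECs it was at 37.9 and 62.5 CPM in Control and 40.3 and 34.5 CPM in Fracture, so that the difference of the effects was 3.21 ± 0.26 (edgeR adjusted p = 0.000503). At 2000 UMIs, 1 or more UMIs of Cxcl10 were found in 0 of 48 (which allows a share with a UMI of up to 6.25%) and 3 of 57 (5.26%) Control members, and in 14 of 239 (5.86%) and 16 of 310 (5.16%) Fracture members, so these shares overlapped between the groups. In resting ECs the share with a UMI was 1.05% and 2.32% in Control and 4.24% and 4.98% in Fracture, higher in Fracture although the levels in CPM were not. No share in cells that should lack the gene was measured, and the shares are not read as cells that express it. Of the 13 antigen and interferon genes edgeR called 0 for this difference (4 at an unadjusted p under 0.05, 0 by DESeq2). Isg15, for one, was at 129 and 67.8 CPM in Control and 207 and 177 CPM in Fracture members.

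Mthfd2, a mitochondrial enzyme of one-carbon metabolism, was at 53.9 and 37.1 CPM in Control and 42.5 and 34.0 CPM in Fracture members. In resting ECs it was at 3.92 and 3.24 CPM in Control and 27.3 and 25.2 CPM in Fracture, a difference of effects of -3.13 ± 0.31 (edgeR adjusted p = 0.00287). The Fracture cells outside the gate held more, at 69.8 CPM. Hells, a chromatin remodeller of S phase, was at 79.1 and 139 CPM in Control and 83.0 and 86.5 CPM in Fracture members, while resting ECs held 5.48 and 9.29 CPM in Control and 16.7 and 17.0 CPM in Fracture (difference -1.55 ± 0.22, edgeR adjusted p = 0.0145). Ezh2, the methyltransferase of Polycomb repressive complex, was at 129 and 147 CPM against 94.1 and 90.9 CPM in members and at 15.4 and 18.4 CPM against 26.4 and 24.5 CPM in resting ECs (difference -1.16 ± 0.18, edgeR adjusted p = 0.0267). Trim59 followed the same order, with a difference of -1.99. Of the 38 S-phase genes, Hells among them, 34 had a difference below 0. Their median was -0.48, against 0.09 over all genes, and 1 was called. In resting ECs, 7 of 36 S-phase genes were called higher in Fracture and 0 lower. Over all 13754 genes tested there, 2422 were higher and 2051 lower. The share of S-phase genes called higher was thus close to that of all genes. ECs with 0 UMIs of Top2a and Mki67 can still be in the cycle, and their share of such cells was not measured. Tagln had a difference of -2.79, while Clec1b, Nrgn and Itgb3, which platelets and megakaryocytes express, and Gpr126 (ADGRG6) had differences of 2.67, 2.47, 2.03 and 1.81. Without cells carrying markers of another type those of Clec1b and Nrgn turned to -0.42 and -0.21 and that of Itgb3 was 0.20, and at 4000 UMIs that of Itgb3 was -0.00067. Clec1b was at 531 and 108 CPM in the Control resting ECs, where the 4 megakaryocyte genes summed to 3459 and 455 CPM.

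Compared with the resting ECs, members had higher cell-cycle genes, as the split on Top2a and Mki67 entails. For this comparison no p is given for single genes, and its counts describe the split. Outside the gate and phase lists, edgeR with the preparation as a block called 1370 of 13334 genes (10.3%) higher and 1166 (8.74%) lower, with a median log2 fold change of -0.06. All 38 S-phase and all 56 G2/M genes measured were higher in members, with median log2 fold changes of 2.78 and 4.82. The named genes with the largest rises included genes of mitosis and replication. Cep55, which completes the cut between daughter cells, was at 28.8, 87.1, 65.0 and 69.2 CPM in the members of Control 1, Control 2, Fracture 1 and Fracture 2 and at most at 0.667 CPM in resting ECs. Pbk, a mitotic kinase, was at 120, 108, 106 and 105 CPM in members and at most 1.03 CPM in resting ECs. Neil3, which repairs DNA at replication forks, was at 65.8 to 116 CPM in members and 0.590 to 1.27 CPM in resting ECs. The others were Casc5 (KNL1), Hist1h1b, Esco2, Shcbp1, Ska1, Mxd3 and Melk, with log2 fold changes of 5.73 to 6.42.

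Around the cycle, 12 of 14 nucleotide synthesis genes were called higher and 0 lower, with a median log2 fold change of 1.10. Tk1, thymidine kinase, had a value of 3.39 ± 0.13 (SE) and Dut, which clears dUTP, of 1.82 ± 0.12. Of 10 ribosome biogenesis genes 9 were higher and 0 lower, with a median of 0.82, and the nucleolar genes Nop56, Nop58 and Ncl were at 1.23, 1.10 and 0.83. Glycolysis genes did not share this direction, as 0 of 14 were higher and 1 (Aldoa) lower, with a median of -0.02. Of 11 G1 regulators 6 were higher and 1 lower. Ccne1 and E2f2, which act at the G1/S transition, had log2 fold changes of 4.17 and 4.07, while Ccnd1, the cyclin that responds to growth factors, was at 0.32 and not called, and Ccnd2 was lower at -0.71. Inhibitors were divided. Cdkn2c (p18), Rbl1 (p107), Cdkn2d (p19) and Cdkn2a were higher, at 2.90, 1.93, 1.5 and 1.395, and Cdkn1c (p57), Btg2 and Btg1 lower, at -0.71, -0.62 and -0.62.

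Markers of other cell types differed in the same comparison. Of 6 osteoblast genes 5 were called lower in the members and 0 higher, with a median log2 fold change of -1.37, and of 5 stromal genes 3 lower and 0 higher, with a median of -0.97. Of 7 erythroid genes 4 were called higher and of 3 basophil genes 2, with medians of 1.64 and 1.597, and 0 lower on either list. Of 4 megakaryocyte genes 3 were called lower and 1 higher (median -1.08), and of 6 chondrocyte genes 2 lower and 0 higher (median -0.40). Their part in the falls of the arterial, venous, Notch and angiocrine lists was not tested. Of 10 arterial genes 9 were called lower and 0 higher, with a median log2 fold change of -1.04. The gap junction gene Gja4 was at 266, 38.7, 67.9 and 112 CPM in members and at 270, 262, 258 and 288 CPM in resting ECs. Members of Control 1 were thus level with resting ECs for Gja4, and those of the other 3 preparations were below them. Sema3g, an arterial semaphorin, was at 180, 54.9, 21.3 and 32.5 CPM in members and 257, 265, 62.7 and 73.5 CPM in resting ECs, lower in 4 of 4 preparations. Of 7 venous genes 5 were called lower. Darc (ACKR1), the chemokine receptor of venules, was at 70.1, 83.9, 36.0 and 45.7 CPM against 152, 271, 132 and 133 CPM. Vwf, the von Willebrand factor gene, was at 194, 40.3, 37.2 and 34.0 CPM against 288, 118, 110 and 132 CPM. Of 7 sinusoidal genes 3 were lower, Il6st, Vcam1 and Adamts5, at -1.08, -0.99 and -0.72, while Stab2 was at -0.53 and not called.

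Genes of Notch signalling and of flow were among those lower. Of 14 Notch genes 5 were called lower and 0 higher. They were the ligand genes Jag1, Jag2 and Dll4 at -0.89, -0.94 and -0.48, the receptor gene Notch1 at -0.49 and the target Hey1 at -1.18. Hes1 and Nrarp, other targets, were at -0.30 and 0.09 and not called. Of 9 junction and flow genes 5 were lower, among them Klf2 and Klf4, which shear stress induces, at -0.55 and -0.83, and Jam2 at -0.85. Of 10 immediate early genes 6 were lower and none higher. Angiocrine genes gave 8 lower of 17, with Cxcl12, the niche chemokine, at -1.46 (with 3007 CPM in the Control cells outside the gate) and Kitl, the stem cell factor, at -0.66. Of VEGF, Tie and apelin genes 4 of 13 were lower, Pgf, Vegfa, Vegfc and Tie1, at -1.499, -1.10, -1.09 and -0.33, and the receptor genes Kdr and Flt1 were at -0.25 and -0.37 and not called. Of 14 basement membrane genes 3 were lower (Agrn, Lamb2 and Sparc), of 13 antigen and interferon genes 2 (Ly6a and Ly6c1), of 13 sprouting genes 4 and of 17 pan-endothelial genes 6, and 0 were higher on any of these 4 lists. The calls of Notch1, Tie1 and Sparc held in 9, 8 and 8 of the 13 alternatives.

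Within each group the differences had the same sign for the genes named here, apart from Kdr, at -0.51 within Control and 0.04 within Fracture. Efnb2, an arterial ephrin, was at -0.96 within Control and -0.88 within Fracture, Darc at -1.38 and -1.68, and Tk1 at 3.23 and 3.54. Kitl was at -1.21 within Control and at -0.20 within Fracture, a difference of 1.04 between the groups that did not pass the test (edgeR adjusted p = 0.0633). Those with the largest falls by the naming rule were Slc6a4, Ccl21a, Treml1, Clec1b, Atp2a3, Tmem100, Gkn3, Afap1l2, Darc and Ptprr, with log2 fold changes of -3.66 to -1.58. Treml1 and Clec1b are genes of megakaryocytes and platelets, while Gkn3 marks some arterial ECs and Ccl21a lymphatic ECs. The calls of Treml1 and Clec1b held in 10 and 8 of the 13 alternatives.

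**Figure D4:**
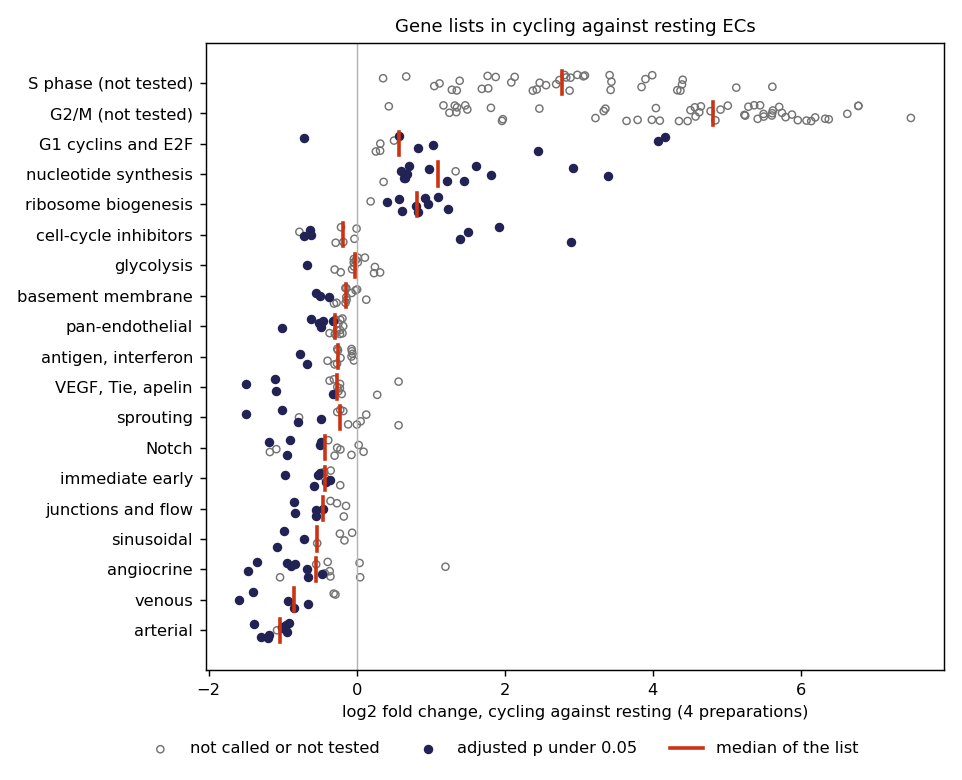
Log2 fold change of each measured gene in cycling against resting ECs over the 4 preparations, by gene list, with called genes filled and the list median as a red bar. The S-phase and G2/M lists move with the genes that split the cells and were not tested, and the arterial and venous lists lie at the left with medians of -1.04 and -0.85.

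The kinds of ECs were then compared at 2000 UMIs per cell, by the presence of 1 UMI of a marker. As background for the markers, cells outside the endothelial gate with a UMI of Ptprc were thinned alike. Of the 1519, 733, 75 and 73 such cells of Control 1, Control 2, Fracture 1 and Fracture 2, 0.461%, 0%, 0% and 1.37% had a sinusoidal, 0.658%, 0%, 0% and 0% an arterial and 4.02%, 3.14%, 2.67% and 5.48% a sprouting marker. A count of 0 allows up to 0.409%, 4% and 4.11% in the last 3 of these preparations. Median depth before thinning was 9633 to 12282 UMIs in these cells and 5187 to 8259 in ECs.

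Arterial markers (Gja4 or Sema3g) were less frequent among members than among resting ECs in 4 of 4 preparations. They were present in 29.2% against 37.5% and 8.77% against 33.2% in Control, and in 9.21% against 20.2% and 11.6% against 19.6% in Fracture. The reverse share, of ECs with any UMI of Top2a or Mki67 left after thinning, is wider than membership. It takes in ECs with 1 such UMI, whose median over the phase genes was the 7 UMIs of ECs with 0, and no background share was measured for it. With an arterial marker against without, it was 3.82% against 5.28% and 5% against 8.28% in Control, and 9.17% against 18.6% and 11.8% against 19.5% in Fracture. The mean difference was -5.45 percentage points ± 3.70 (SD, n = 4), with a two-sided exact permutation p of 0.125, the smallest that 4 pairs can give, and 0.375 after adjustment over 6 comparisons. In arterial-marker cells this share was higher in Fracture than in Control, at 10.5% ± 1.88 against 4.41% ± 0.838 (SD, n = 2, exact permutation p = 0.333).

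For the sinusoidal marker Stab2 no shift of the same share beyond the spread was seen. With Stab2 against without, it was 4.90% against 4.70% and 7.81% against 6.89% in Control, and 16.4% against 17.0% and 21.0% against 17.7% in Fracture (mean difference 0.952 points ± 1.65, n = 4, exact permutation p = 0.375). Among members, Stab2 was present in 16.7% and 36.8% in Control and 13.0% and 11.6% in Fracture, and among resting ECs in 24.98% and 36.6% against 11.1% and 10.2%.

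With a sprouting marker (Apln, Esm1 or Angpt2) against without, the share with a Top2a or Mki67 UMI was 21.2% against 15.4% and 20.8% against 17.1% in Fracture. In Control it was 4.93% against 4.73% and 5.65% against 7.44%, so that the direction was not shared (mean difference 1.96 points ± 3.41, n = 4, exact permutation p = 0.375). The sprouting markers were present in 8.33% and 12.3% of Control and in 30.1% and 29.0% of Fracture members. In resting ECs they were present in 10.2% and 11.8% of Control and 26.1% and 24.5% of Fracture cells, and the shares of the groups did not overlap in either state.

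**Figure D5:**
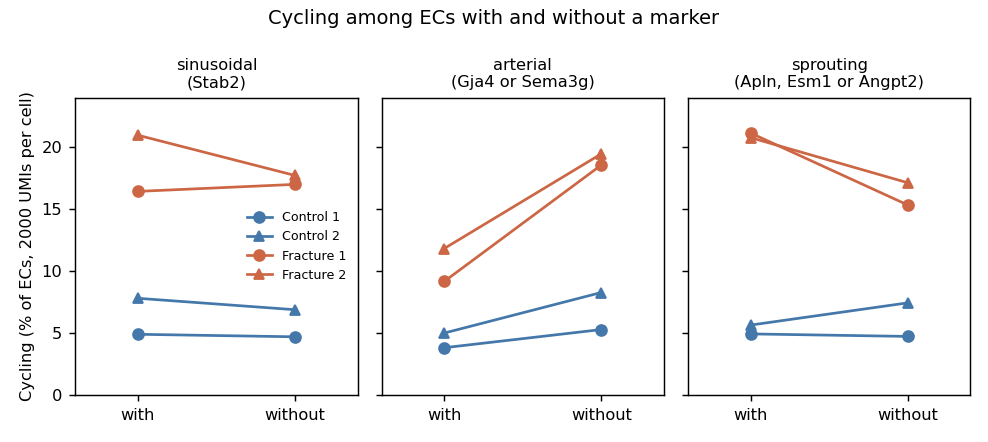
Percentage of ECs with any UMI of Top2a or Mki67 at 2000 UMIs per cell, among cells with and without 1 UMI of a sinusoidal, arterial or sprouting marker, with 1 line for each preparation. In the arterial panel all 4 lines rise from cells with the marker to cells without it, and in every panel both Fracture lines lie above both Control lines.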

How the data were processed

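Femoral stromal cells were profiled with Chromium 3′ chemistry, and 8 libraries in 2 groups of 2 preparations were analysed. The authors deposited a table of UMI counts per gene and barcode for each library. Per the labels the tools included bcl2fastq 2.19.1.403, STAR 2.7.3a, UMI-tools 1.0.0 and featureCounts 1.6.4 on mm10, while the study's methods describe another counting route, and which made these counts was not settled. The study's methods name the 10x whitelist and an EmptyDrops filter, and whether these tables were filtered so was not settled. Cells with 500 to 6000 genes and at most 25% mitochondrial UMIs were kept. Genes beginning with U have no value in Control preparation 1 and were left out in all samples, a choice made after this gap was seen. The members and gene lists were chosen with earlier results of these data known. UMIs were summed over the cells of each preparation and state, and tested with edgeR 4.0.16 (quasi-likelihood, TMM, filterByExpr, Benjamini-Hochberg 0.05) in R 4.3.3. Cycling and resting cells of 1 preparation were paired by a preparation block. DESeq2 1.42.0 was an alternative. Doublets were scored with scanpy 1.11.5 and kept. Shares were compared over preparations with exact permutation tests (scipy 1.17.1). Genes were named from the lists, or as the 10 largest called rises and falls (5 for the difference between states) with a mean of at least 20 CPM and a level not below that outside the gate, leaving out rule genes and lists of other cell types. The fits were tested on simulated data. Values after ± are SDs over preparations, or SEs computed from the edgeR log2 fold change and F statistic. The limits given for counts of 0 cover counting error only.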

Additional observations from a re-analysis of the deposited data

Results flagged for a closer look

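One of the 4 Fracture libraries lay apart in the share of ECs with any UMI of Top2a or Mki67 at 2000 UMIs, at 19.6% against 16.7% to 17.1% in the others. Its gap to the nearest library was 0.857 of the range, above Dixon's critical value for 4 libraries, which chance alone passes in about 1 of 20 groups. For the share of members, with all UMIs, the ratio of the same libraries was 0.740, under that value. Of the 4 ratios computed over both groups and measures only the one at 2000 UMIs passed. The 4 libraries are 2 pairs from 2 preparations and are not independent.

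The fracture effect differed between cycling and resting ECs for 36 genes by the edgeR term for group and state. The named differences were 3.21 for Cxcl10, 2.67 for Clec1b, 2.47 for Nrgn, 2.03 for Itgb3 and 1.81 for Gpr126, and -3.13 for Mthfd2, -2.79 for Tagln, -1.99 for Trim59, -1.55 for Hells and -1.16 for Ezh2. None of these 10 calls held under every alternative tried. The smooth muscle, megakaryocyte, basophil and erythroid lists also held called genes for this difference, among them Acta2, Ppbp, Mcpt8 and Gata1, and what cells of these types contribute was not tested.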

How the results depend on the processing

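For Fracture against Control members, the 303 calls became 1356 without a filter on low counts, 137 without called doublets, all of them among the 303, and 89 with the genes whose symbol begins with U, an alternative added after seeing the data, 88 of them shared. Without cells carrying other markers 454 were called, 136 of them shared, and at 4000 UMIs 358, 166 of them shared. With the replicate number as a block, 192 were called, 178 of them shared. The deviations of same-numbered preparations correlated at r = 0.10, a single value for 2 pairs, and the samples share only a number. Leaving out a preparation gave 39 to 2002 calls. Cycling against resting ECs gave 2536 calls and 1737 to 2529 with a preparation left out, and every other alternative stayed within 1.5 times. The 36 calls for the difference between states became 267 without the filter, 0 without the replicate block (1079 at an unadjusted p under 0.05 by edgeR), 68 without cells carrying other markers (6 of them shared with the 36), 130 with at least 4 UMIs of Top2a and Mki67 (32 shared), 96 at 4000 UMIs (22 shared), 23 by DESeq2 (21 shared) and 53 to 923 with a preparation left out. The signs turned for Cdk6 between states (-0.56), Nrgn (-0.21) and Clec1b (-0.42) without cells carrying other markers, and for Itgb3 at 4000 UMIs (-0.00067). The cause was not tested. With a preparation left out, the Fracture minus Control difference in the share of members was 14.8 to 17.1 points. For the share with any UMI of Top2a or Mki67 at 2000 UMIs it was 10.3 to 12.8 points. For members with an arterial marker the difference was -8.56 points and turned to 1.64 without Control 1, with a range of -18.8 to 1.64. Among sinusoidal-marker cells, the difference in the share with any UMI of Top2a or Mki67 moved from 12.4 to 15.2 points at 4000 UMIs. The difference in the sprouting share of members moved from 19.3 to 21.6 points. That in the share of sprouting-marker cells with any UMI of Top2a or Mki67 moved from 15.7 to 18.6, and to 15.2 without doublets. The other ranges with a preparation left out were -24.6 to -4.37 points for members with Stab2 and 17.3 to 21.2 for members with a sprouting marker. For marker cells with any UMI of Top2a or Mki67 they were 10.1 to 14.6 (Stab2), 4.77 to 7.42 (arterial) and 15.3 to 16.04 (sprouting). Of 34 named calls in Fracture against Control members, 4 held under every alternative, and 74 of 109 between states. The Control preparations held 50 and 61 members, which limits what low genes can show.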
